A study of Mus musculus with 13 samples.

Results

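Ribosomal protein pseudogenes are genomic copies of ribosomal protein genes, and they were described here as 165 of the 27071 features of a deposited count table. Members were all genes whose mouse symbol starts with Rpl or Rps and ends in -ps, with or without a number. By name they were copies of 51 parent genes, all of them in the table, with 101 copies of large subunit genes and 64 of small subunit genes. The study mixed total RNA of MA-10, a steroid-producing line from a mouse Leydig cell tumour, with a purified bait outside the cell and then pulled the bait down. The bait, called KHT, was the KH and Tudor domains of dAKAP1, an anchoring protein of the outer mitochondrial membrane, and the pull-downs used beads with an antibody against maltose-binding protein (MBP). The groups are 4 pull-downs with KHT, 5 negative controls (NEG) and 4 samples of the RNA before the pull-down (IPT), all from RNA of untreated cells of this 1 line. A negative control used either beads without protein, or MBP by itself, or the KHT(GDDG) protein; the sources used here do not say which library had which. The library NEG 2 was at 0 throughout and was left out, so each group had 4 libraries. KHT libraries were grouped by title and treatment, since their description speaks of negative controls.

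Cytosolic ribosomes are built from a large and a small subunit, and the messenger RNAs of their proteins are among the most abundant in a growing cell. Such messenger RNAs have often been copied back into the genome, which leaves copies that mostly lack introns and a promoter of their own. A copy can be almost identical in sequence to the spliced messenger RNA of its parent and to other copies, so a short read can match several of them, and the division of counts among them is uncertain throughout what follows. Pseudogene sequences were not used here.

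Depth differed widely between groups. The 4 NEG libraries held 1162178 to 1618998 estimated counts, of which 96.0% to 98.1% fell on 9 dominant features, leaving 31318 to 49062 counts for all other genes. KHT libraries held 929348 to 2101632 counts outside these features and IPT libraries 1542713 to 2237374. Counts of all ribosomal protein genes, paralogs and pseudogenes together were 1469 to 4587 in NEG, 29199 to 59813 in KHT and 43164 to 75479 in IPT. Every one of the 79 cytosolic ribosomal protein genes had counts in each KHT and IPT library, against 31, 47, 52 and 61 of them in NEG 1, 3, 4 and 5. Nothing in the labels says that the libraries of a group came from separate cultures, so p-values measure only the spread between these libraries.

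Pseudogenes held a larger part of the ribosomal protein counts in NEG than in most KHT and all IPT libraries. Their share was 48.6%, 42.8%, 38.8% and 19.7% in NEG 1, 3, 4 and 5. It was 8.73%, 20.5%, 11.5% and 14.7% in KHT 1 to 4. In IPT 1 to 4 it was 11.1%, 8.85%, 9.79% and 7.22%. The means were 37.5% ± 12.5 for NEG, 13.9% ± 5.06 for KHT and 9.23% ± 1.62 for IPT (SD, n = 4 each). NEG and KHT overlapped, because NEG 5 lay below KHT 2, and KHT and IPT overlapped as well, while every NEG library lay above every IPT library. Without NEG 5 the NEG mean was 43.4%, and without KHT 2 the KHT mean was 11.7%. These shares are counts not divided by gene length and are given as a description without a test.

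**Figure D1:**
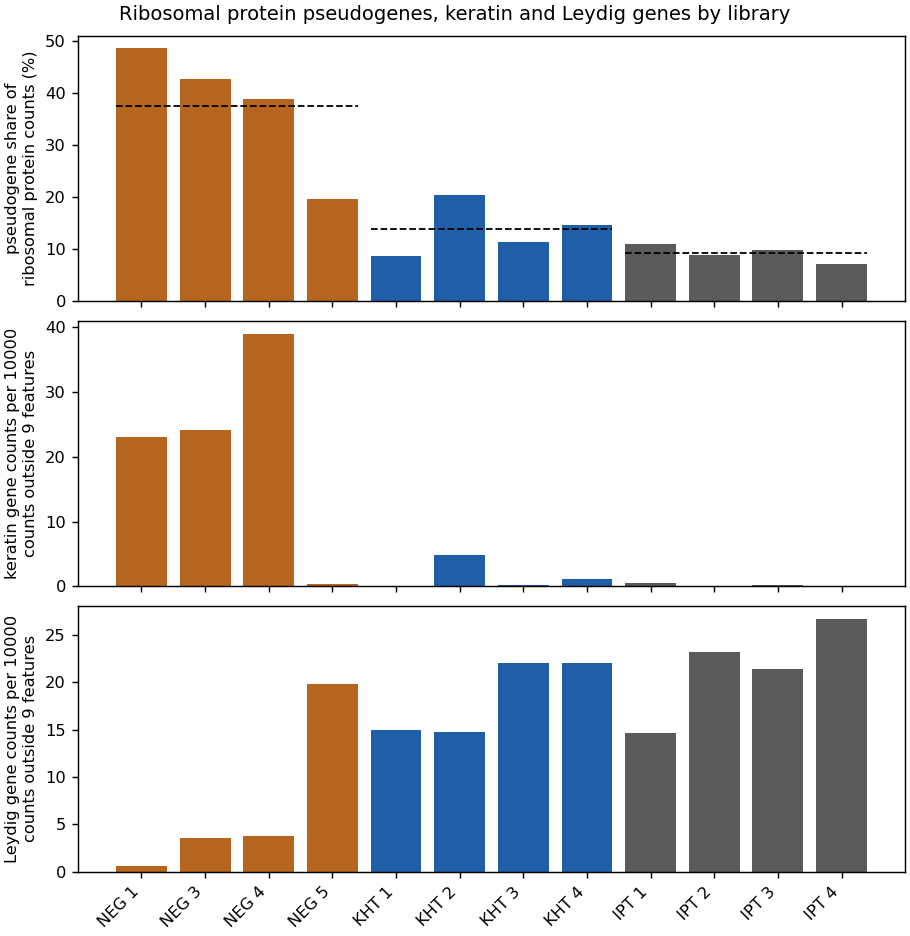
Bars give, for each of the 12 libraries, the pseudogene share of ribosomal protein counts in percent with group means dashed (top), and the summed counts of 20 keratin genes (middle) and 10 Leydig cell markers (bottom) per 10000 counts outside the 9 dominant features. NEG 1, 3 and 4 are high in the top and middle panels and low in the bottom one, while NEG 5 has 19.7%, 0.408 and 19.8 in the 3 panels.

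Of all counts outside the dominant features, ribosomal protein pseudogenes made up 4.11% ± 2.42 of NEG, 0.479% ± 0.257 of KHT and 0.274% ± 0.0808 of IPT counts (SD, n = 4 each). The 278 other pseudogenes with a -ps symbol made up 0.453% ± 0.112, 0.160% ± 0.0211 and 0.140% ± 0.0132 of the same counts. The ribosomal protein copies thus ran from 0.589% in NEG 5 to 6.06% in NEG 1, a wider span than the other -ps pseudogenes, whose lowest and highest NEG values were 0.287% and 0.524%.

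Sums of some genes of another cell type were also highest in NEG 1, 3 and 4. Keratins, the intermediate filament proteins of epithelia, summed over 20 genes to 23.0, 24.2, 39.0 and 0.408 per 10000 counts outside the dominant features in NEG 1, 3, 4 and 5. In KHT 1 to 4 the keratin sum was 0.104, 4.89, 0.271 and 1.22, and in IPT it ran from 0.0306 to 0.470. KHT 2, which had the highest pseudogene share of its group, thus also had the highest keratin sum, and NEG 5 had the lowest of both in NEG. Among NEG 1, 3 and 4 the order was reversed, with the highest share in NEG 1 and the highest keratin sum in NEG 4. Only 6, 8, 5 and 1 of the 20 keratins had counts in NEG 1, 3, 4 and 5. Krt17 had the most, with 35, 46, 89 and 2, while Krt8 and Krt19 were at 0 in NEG. The 10 Leydig cell markers, among them Star and Cyp11a1 of steroid synthesis, summed to 0.639, 3.56, 3.75 and 19.8 in NEG 1, 3, 4 and 5. Their sum was 14.7 to 22.0 in KHT and 14.7 to 26.7 in IPT, with all 10 markers detected in each of these 8 libraries, as the label Leydig cell line states. NEG 1 held 2 Leydig counts, on 1 of the 10 markers. Of 6 markers of germ cells, 2 were in the table and both were at 0 in NEG, while 7 Sertoli markers summed to at most 3.26 in NEG and 1.80 to 3.79 in KHT and IPT. The 5 markers of macrophages, endothelium and peritubular cells in the table summed to 11.2, 6.87, 6.35 and 1.43 in NEG 1, 3, 4 and 5 and to 0.564 to 1.19 in the other libraries. The keratin list was added after its values had been seen. All libraries were made from RNA of 1 cell line, handled outside the cell, so these sums do not measure numbers of cells. Where the keratin counts came from was not tested. The part of these marker levels in the pseudogene share was not tested.

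Most members were rare, and each group's sum rested on few of them. Over the 12 libraries 81 of the 165 pseudogenes had at most 10 counts, 48 had at least 100 and 15 had over 1000, with a median of 11. Counts were found for 81 members in NEG, 129 in KHT and 109 in IPT, and the summed counts were 5791, 24856 and 20934. The 6 members with the most counts held 46.9% of the sum in NEG, 39.7% in KHT and 48.8% in IPT. Rps23-ps1, a copy of the small subunit gene Rps23, was the single member among these 6 in every group, with 437, 1731 and 1694 counts. In KHT the others were Rpl19-ps11, Rps6-ps4, Rps12-ps3, Rps27a-ps2 and Rpl10a-ps1, and in IPT they were Rps6-ps4, Rps12-ps3, Rpl10a-ps1, Rpl31-ps8 and Rpl27-ps3. In NEG they were Rpl19-ps1 (684 counts), Rps27a-ps2 (505), Rpl15-ps1 (441), Rpl19-ps11 (395) and Rplp0-ps1 (253).

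Single libraries stood out across many members. Tallies here use each gene's share of the ribosomal protein counts of a library. Among the 43 pseudogenes that passed the filter on low counts, KHT 2 was the highest of the KHT libraries in 24. It was the highest for 13 of the 79 ribosomal protein genes. KHT 2 also had the highest pseudogene share of its group, and its tallies are not independent of that share. IPT 1 was the highest IPT library in 21 of the 37 tested pseudogenes with IPT counts and in 23 of the 79 ribosomal protein genes. NEG 5 was the highest NEG library for 13 of the 38 tested pseudogenes with NEG counts and for 47 of 72 ribosomal protein genes. It was also lowest or tied for lowest in 22 of the 38 pseudogenes, against 17 for NEG 1, 9 for NEG 3 and 10 for NEG 4. IPT 1 had the highest pseudogene share of its group and NEG 5 the lowest, so their tallies are not independent of that share either. Many values were 0, with 22, 14, 14 and 17 of the 43 tested pseudogenes at 0 in NEG 1, 3, 4 and 5. The heatmap of tested members has bright cells at the upper left, in NEG, and dark cells at the lower left.

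**Figure D2:**
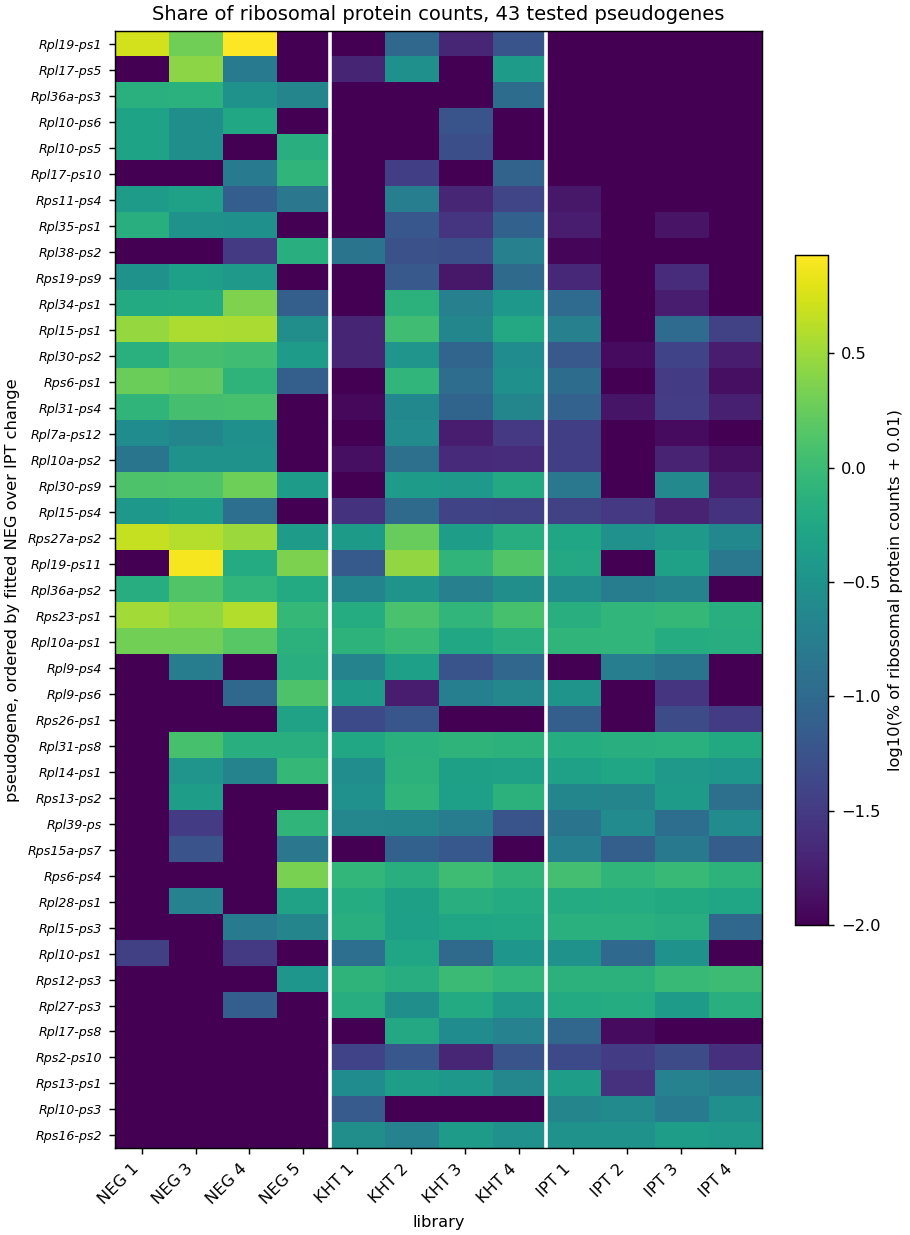
Each row is 1 of the 43 tested pseudogenes and each column 1 of 12 libraries, coloured by log10 of the percent of ribosomal protein counts plus 0.01, with white lines between groups and rows ordered by the fitted NEG over IPT change. Rows run from Rpl19-ps1, at 0 in IPT, to Rps16-ps2, at 0 in NEG.

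Within gene families the NEG libraries gave most weight to the copies. Over the counts of a parent and all its copies, summed over the 4 libraries of a group, the copies held over 50% in 25 of 50 families in NEG, 13 of 51 in KHT and 10 of 51 in IPT. The median family percentage was 50.4% in NEG, 3.26% in KHT and 1.36% in IPT. It was higher in NEG than in KHT in 40 of 50 families, higher in NEG than in IPT in 41 of 50 and higher in KHT than in IPT in 38 of 51. Copies held over 50% in NEG but under 50% in KHT and IPT in 15 families, and in 5 families the parent had 0 counts in NEG while a copy had some. These percentages compare counts of genes of different length, with few counts for many NEG families, and are given without a test.

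A set of 7 families was led by copies in all 3 groups. In the Rps12 family, with 12 copies, copies held 93.1% in KHT, 91.1% in IPT and 96.7% in NEG, where 147 counts fell on copies and 5 on the parent. Copies of Rpl27 held 80.0% in KHT and 84.4% in IPT, and those of Rps23 held 80.8% and 75.0%. Rpl28 copies held 72.5% and 68.3% in KHT and IPT but 44.1% in NEG, where they had 15 counts and the parent 19. At the other end, Rplp0, which encodes the protein at the base of the ribosomal stalk, had 8612 counts in KHT and 11131 in IPT with 0 on its copy Rplp0-ps1. In NEG the same family had 73 counts on the parent, 2, 0, 5 and 66 in NEG 1, 3, 4 and 5, and 253 on the copy, or 77.6%. The 253 counts of Rplp0-ps1 lay in NEG 1, 3 and 4 with 130, 54 and 69, and it was at 0 in NEG 5 and all 8 KHT and IPT libraries; it did not pass the filter and was not tested.

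**Figure D3:**
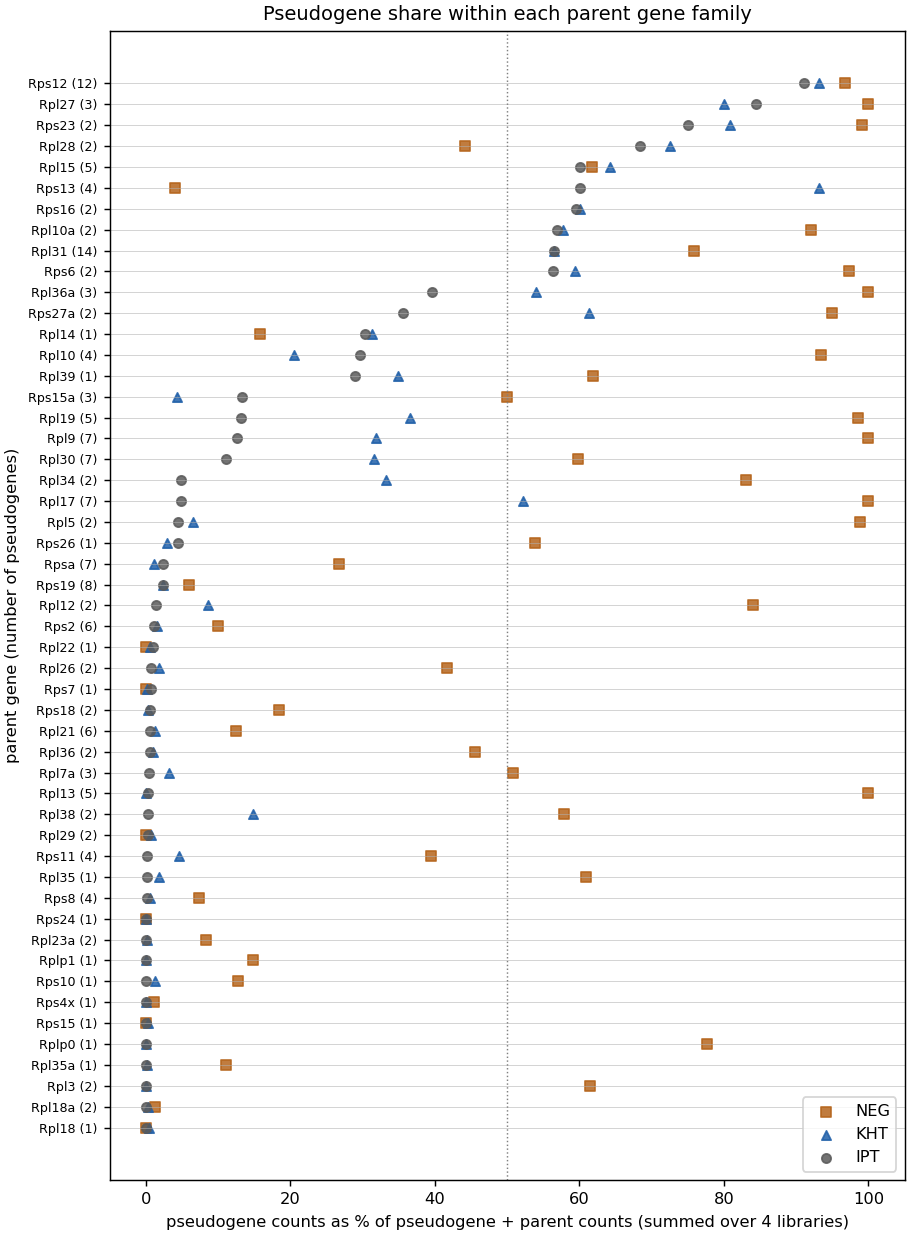
Each row is 1 of the 51 parent genes, with its number of pseudogenes in brackets, and points give the pseudogene counts as a percent of pseudogene and parent counts, summed over the 4 libraries of NEG, KHT or IPT. KHT and IPT points lie close together for the 10 uppermost rows except Rps13, while NEG squares lie to the right of both in most of the rows below.

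All 3 groups entered 1 edgeR quasi-likelihood fit, scaled by TMM, and a call means a Benjamini-Hochberg adjusted p under 0.05 over all 10714 genes tested. The 43 tested members held 94.4% of all member counts, and the other 122 had too few counts. Because a member could pass the filter through a single high group, the counts below describe the tested members and not all 165. Changes are log2 fold changes, and values of single libraries are deposited counts. TMM factors were 0.0986 to 0.199 in NEG and 2.05 to 3.15 in the other groups, so scaling decides the direction of some changes against NEG, as given beside each. The comparisons share their groups, so a member high in NEG is counted in more than 1 of them.

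KHT was compared with NEG to ask which RNAs came down with the bait beyond those of the controls. Here 3 of the 43 tested pseudogenes were higher in KHT and 13 were lower, beside 31.0% of all tested genes called higher and 2.72% called lower. The median log2 fold change was -2.47 over the tested pseudogenes, 1.38 over the 79 ribosomal protein genes and 1.73 over all genes. With genes at 0 in a group set at their bound, these medians were -2.47, 1.38 and 0.94. Copies of large subunit genes made up 10 of the 13 lower and 1 of the 3 higher, out of 30 tested, and copies of small subunit genes 3 and 2 out of 13. The 13 lower pseudogenes came from 11 parents, of which 3 were called higher, 3 lower and 5 neither. Scaled by total counts alone, 16 pseudogenes were higher in KHT and 1, Rpl19-ps1, was lower, beside 97.3% and 0.131% of all tested genes. The median was then 1.56 beside 5.67 over all genes. The count of lower pseudogenes was 5 without NEG 1 and 7 without NEG 3, NEG 4 or KHT 3, and that of higher pseudogenes was 5 without NEG 3.

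The 3 pseudogenes higher in KHT than in NEG were Rps16-ps2, Rps12-ps3 and Rpl27-ps3. They were among 7 of the 43 tested pseudogenes whose groups did not overlap. The share of all genes without overlap was not computed. Rps16-ps2, on chromosome 5 at 129128020 to 129128571 (GRCm38), had 163, 82, 223 and 86 counts in KHT 1 to 4 and 0 in every NEG library. With the NEG sum set to a floor of 3 counts, the KHT level was at least 5.91-fold higher (edgeR adjusted p = 0.00269), or 101-fold under total counts. Its IPT counts were 235, 133, 189 and 218, which is at least 6.27-fold above NEG (edgeR adjusted p = 0.00171). The parent Rps16, of the small subunit, was also at 0 in all of NEG and had 45 to 155 counts in KHT, at least 3.93-fold higher (edgeR adjusted p = 0.00507). Copy and parent thus behaved alike in NEG, and the copy had more counts than the parent in all 8 KHT and IPT libraries.

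Rps12-ps3, a copy of a small subunit gene on chromosome 19 at 59322290 to 59322784, had 482, 290, 554 and 243 counts in KHT and 569, 325, 439 and 601 in IPT. In NEG it had 5 counts, all in NEG 5. The log2 fold change of KHT over NEG was 3.37 (SE 0.76, edgeR adjusted p = 0.00527). Its parent Rps12 had 18 to 48 counts in KHT and 25 to 75 in IPT, far fewer than the copy, and likewise 5 counts in NEG, all in NEG 5. The change of the parent was -0.30 (edgeR adjusted p = 0.781), turned to 3.67 under total counts and to 7.79 with the replicate number as a block. Only NEG has a library numbered 5, so the block also takes NEG 5, and with it all NEG counts of Rps12, out of the comparison. Rpl27-ps3 had 399, 120, 339 and 106 counts in KHT, 455, 281, 181 and 420 in IPT and 3 in NEG, all in NEG 4. The ratio of KHT over NEG was 10.3 (95% counting interval 3.51 to 49.9, edgeR adjusted p = 0.00907), or 176 under total counts. The parent Rpl27, of the large subunit, was at 0 in NEG and had 27 to 78 counts in KHT, at least 2.59-fold higher (edgeR adjusted p = 0.0315). That call of Rpl27 was lost without any 1 of the NEG libraries (adjusted p 0.0598 to 0.0929), while the calls of the 3 pseudogenes held in all 18 alternatives run.

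Lower in KHT than in NEG was led by Rpl19-ps1, a copy of a large subunit gene on chromosome 1 at 85012086 to 85012787. It had 209, 83 and 392 counts in NEG 1, 3 and 4 and 0 in NEG 5. In KHT it had 0, 38, 6 and 14 counts, and in IPT 0 throughout. Although every KHT library held more counts outside the dominant features than any NEG library, the sum was 684 in NEG and 58 in KHT. The log2 fold change was -8.32 (SE 2.08, edgeR adjusted p = 0.0166), and it was lower under total counts as well (-4.09). The groups overlapped through NEG 5, and the call was lost without NEG 1 (adjusted p = 0.0715, over all alternatives 8.8e-08 to 0.0715). In NEG 1 another copy of the same parent, Rpl19-ps12, had the same 209 counts.

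Abundant copies with counts in every library were lower in KHT under TMM scaling and had positive changes under total counts. Rps23-ps1 had 129, 116, 179 and 13 counts in NEG 1, 3, 4 and 5, 346 to 529 in KHT and 361 to 525 in IPT. Its log2 fold change of KHT over NEG was -3.01 (SE 0.83, edgeR adjusted p = 0.0125) and 1.25 under total counts. The parent Rps23, whose protein lies at the decoding centre, had 4 counts in NEG, all in NEG 5, and 60 to 151 in KHT (1.71, SE 0.71, edgeR adjusted p = 0.0666). Rps23 was called higher in KHT without NEG 5 (9.43, adjusted p = 0.00132). The replicate number as a block, which also takes out NEG 5, gave nearly the same (9.40, 0.00529). Rps23 was also called higher under total counts (5.69, 8.9e-08), in DESeq2 (1.79, 0.0388) and without the filter (2.01, 0.0436). In this family the copy was detected in all 4 NEG libraries and the parent in 1.

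Rps27a-ps2 is a copy of the gene for ubiquitin fused to a small subunit protein. It had 186, 170, 143 and 6 counts in NEG 1, 3, 4 and 5, then 232, 761, 232 and 193 in KHT and 390, 128, 172 and 135 in IPT. The change of KHT over NEG was -3.33 (SE 0.97, edgeR adjusted p = 0.0159) and 0.85 under total counts. Rps27a itself had 0, 5, 0 and 22 counts in NEG and 151 to 334 in KHT, with a change of 0.20 (edgeR adjusted p = 0.819). It was called higher in KHT without NEG 5 (1.99, adjusted p = 0.0293) and under total counts (4.10, adjusted p = 5.2e-05). NEG 5, low for the copy, was thus the highest NEG library for the parent. Rpl10a-ps1 had 79, 87, 67 and 11 counts in NEG and 205 to 469 in KHT (-2.47, SE 0.73, edgeR adjusted p = 0.0164; 1.76 and also called under total counts). Its parent Rpl10a, of the large subunit, had 0, 0, 9 and 15 (0.59, edgeR adjusted p = 0.462) and was called higher in KHT under total counts (4.61, adjusted p = 4.2e-06). In the fit of KHT and NEG alone, the calls of Rps27a-ps2 (0.0537), Rps23-ps1 (0.0650) and Rpl10a-ps1 (0.0954) were lost, and Rpl10a-ps1 also lost it without KHT 3 (0.0574). Their lowest adjusted p over the alternatives was 0.000863, 0.000103 and 0.000214.

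A further 3 of the largest falls rested on few counts. Rpl10-ps6 had 19, 12, 25 and 0 counts in NEG 1, 3, 4 and 5 and 27 in KHT, all in KHT 3 (-6.27, SE 1.48, edgeR adjusted p = 0.0221). Rpl10-ps5 had 19, 12, 0 and 10 in NEG and 23 in KHT, again all in KHT 3 (-5.92, SE 1.37, edgeR adjusted p = 0.0183). Rpl36a-ps3 had 28, 31, 14 and 3 in NEG and 29 in KHT, all in KHT 4 (-6.14, SE 1.59, edgeR adjusted p = 0.0290). None of the 3 had a count in IPT. Rpl10-ps5 and Rpl10-ps6 had identical values in NEG 1 and NEG 3. Parents went the other way, with Rpl36a at 0 in NEG and 66 to 119 in KHT (at least 4.29-fold, edgeR adjusted p = 0.00381) and Rpl10 at 7 counts in NEG and 2037 in KHT (3.20, SE 0.71, edgeR adjusted p = 0.00500). All 3 calls were lost under total counts and in DESeq2 and without NEG 1 (adjusted p 0.0504, 0.0642 and 0.0893 for Rpl10-ps5, Rpl10-ps6 and Rpl36a-ps3). Over all alternatives the adjusted p reached 0.189, 0.170 and 0.249 for these genes. Rpl10-ps6 was also not called without NEG 3 (0.0510) or NEG 4 (0.0599), and Rpl36a-ps3 without NEG 3 (0.0818), NEG 4 (0.0619), KHT 1 (0.0546), KHT 2 (0.0537) or KHT 3 (0.0529).

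Compared with IPT, the RNA before the pull-down, NEG had 23 of the 43 tested pseudogenes higher and 3 lower, beside 3.64% of all tested genes called higher and 32.5% lower. The median log2 fold change was 4.08 over the pseudogenes, -1.41 over the 79 ribosomal protein genes and -1.74 over all genes (4.08, -1.23 and -0.95 with genes at 0 at their bound). Among the 23, 18 were copies of large subunit genes and 5 of small subunit genes. Their 17 parents were called higher in 3 cases, lower in 6 and neither in 8. Under total counts 7 pseudogenes were higher in NEG and 16 lower, beside 0.467% and 97.3% of all tested genes. The median was then -0.38 beside -5.92 over all genes. The 3 lower were Rps16-ps2, Rps12-ps3 (-3.27, SE 0.76, edgeR adjusted p = 0.00524) and Rpl27-ps3 (IPT over NEG 10.8, 95% counting interval 3.70 to 52.5, edgeR adjusted p = 0.00653).

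The largest rises in NEG were pseudogenes at 0 in all 4 IPT libraries. Rpl19-ps1, with 684 NEG counts, was at least 9389-fold higher in NEG against a floor of 3 counts over the IPT group (edgeR adjusted p = 0.00558). The bounds were at least 1043-fold for Rpl36a-ps3 (0.0129), 769-fold for Rpl10-ps6 (0.0109) and 563-fold for Rpl10-ps5 (edgeR adjusted p = 0.00792). These bounds depend on TMM scaling: with total counts they were at least 464-fold, 51.6-fold, 38.0-fold and 27.8-fold in the same order, and the 4 were called higher as well. Rpl17-ps5 had 112 counts in NEG 3, 7 in NEG 4 and 0 in NEG 1 and NEG 5, and the bound of at least 1633-fold (edgeR adjusted p = 0.0411) rested on NEG 3, without which the adjusted p was 0.256. It was lost in 14 of 18 alternatives, among them each single IPT library left out (0.0649 to 0.0674), NEG 1 (0.0604) or NEG 4 (0.0669), and KHT 1 (0.0512), KHT 2 (0.0584) or KHT 4 (0.0617). Rpl17-ps10, with 7 counts in NEG 4 and 12 in NEG 5, was at least 261-fold higher (edgeR adjusted p = 0.0298), a call lost without NEG 4 (0.0738) or NEG 5 (0.0535), under total counts (0.0730) and without the filter (0.0653). With total counts the bounds of Rpl17-ps5 and Rpl17-ps10 were at least 80.8-fold and 12.9-fold.

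Members with counts in IPT rose as well. Rpl15-ps1, a copy of a large subunit gene on chromosome 11 at 21953106 to 21953754, had 115, 158, 164 and 4 counts in NEG 1, 3, 4 and 5 and 134, 0, 43 and 16 in IPT. The change was 6.82 (SE 1.74, edgeR adjusted p = 0.0116), and scaled by TMM the groups did not overlap, though NEG 5 had fewer counts than IPT 1, 3 and 4. Under total counts the change of Rpl15-ps1 was 2.25 and not called (adjusted p = 0.158). Rps27a-ps2 rose by 4.81 (SE 1.04, edgeR adjusted p = 0.00410) and Rps23-ps1 by 3.58 (SE 0.85, edgeR adjusted p = 0.00599). Rpl10a-ps1 rose by 2.74 (SE 0.73, edgeR adjusted p = 0.0100), a call lost with only these 2 groups fitted (0.0564). Under total counts the change of Rps27a-ps2 was 0.30 and not called (adjusted p = 0.681), and those of Rps23-ps1 and Rpl10a-ps1 were -0.98 and -1.74, the latter called lower in NEG.

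KHT and IPT, the pull-down and its input, differed in 1 of the 43 tested pseudogenes, which was higher in KHT, and in none that was lower, beside 0.00933% and 0.0% of all tested genes. That pseudogene, Rpl38-ps2, was the single gene called among the 10714. DESeq2 called 2 tested pseudogenes higher in KHT and 0 lower, without a count over all genes to set beside them. At an unadjusted p under 0.05 the edgeR test had 6 higher and 1 lower, beside 102 higher and 73 lower of all 10714 genes. Without KHT 1, 1 pseudogene was called lower, Rpl10-ps3, which had 36 counts in KHT 1, 0 in KHT 2 to 4 and 157, 102, 67 and 173 in IPT 1 to 4. The median log2 fold change was 1.54 over the tested pseudogenes, 0.04 over the 79 ribosomal protein genes and 0.01 over all genes, and 38 of the 43 pseudogenes had a positive change. Under total counts the medians were 1.24, -0.20 and -0.24, and 33 were positive.

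Rpl38-ps2 is a copy of Rpl38, a small protein of the large subunit, and lies on chromosome 6 at 140746919 to 140747216. It had 75, 19, 23 and 53 counts in KHT 1 to 4 and 1, 0, 0 and 0 in IPT 1 to 4. NEG had 0, 0, 1 and 10 in NEG 1, 3, 4 and 5. All 4 KHT libraries thus lay above all 4 IPT libraries, and NEG 5 held nearly all of the NEG counts. The change of KHT over IPT was 7.05 (SE 1.01, edgeR adjusted p = 0.0412), and the ratio of the summed counts was 224 (95% counting interval 39.6 to 8894). Rpl38 itself had 153 to 338 counts in KHT and 328 to 528 in IPT, with a change of -0.28 (SE 0.44, edgeR adjusted p = 1.00). Against NEG the change of Rpl38-ps2 was -0.85 (edgeR adjusted p = 0.435), and 3.11 under total counts, where it passed. NEG over IPT it was 7.90 (SE 1.41, edgeR adjusted p = 0.00257), or 0.0937 without NEG 5.

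The call of Rpl38-ps2 between KHT and IPT was close to the threshold. It was lost with the RLE size factors (adjusted p = 0.0702) and under total counts (0.0714). It was also lost without IPT 1 (0.655), IPT 2 (0.319), IPT 3 (0.359), IPT 4 (0.265) or NEG 4 (0.145). It held in the other 11 of 18 alternatives, and over all 18 the edgeR and DESeq2 adjusted p ran from 2.1e-19 to 0.655. The log2 fold change stayed between 6.71 and 8.04 with any 1 library left out.

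Copies of 1 parent went different ways across the groups. Of the Rps6 copies, Rps6-ps4 had 522, 297, 581 and 237 counts in KHT, 849, 358, 436 and 471 in IPT and 32 in NEG, all in NEG 5. Rps6-ps1 had 72, 70, 37 and 1 in NEG 1, 3, 4 and 5, 0, 368, 57 and 84 in KHT and 74, 0, 10 and 2 in IPT. Their parent Rps6, a small subunit protein phosphorylated in response to growth signals, had 0, 4, 2 and 0 in NEG, 190 to 716 in KHT and 278 to 560 in IPT. Rps6-ps4 thus had counts near those of the parent in KHT and IPT, while Rps6-ps1 was high in NEG 1, 3, 4 and KHT 2. NEG over IPT, Rps6-ps1 was called higher (6.63, SE 2.05, edgeR adjusted p = 0.0325) and Rps6-ps4 was not called (-0.84, SE 0.88, edgeR adjusted p = 0.435). Rps6-ps4 was called lower in NEG without NEG 5 (-11.40, adjusted p = 0.000178) and under total counts (-4.88, 0.000217). With the replicate number as a block, which also takes out NEG 5, it was called lower as well (-11.34, 0.00171). The call of Rps6-ps1 was lost under total counts (2.13, 0.227), without the filter (0.0654), and without NEG 1 (0.0629), NEG 3 (0.0566), NEG 4 (0.0555), IPT 2 (0.05004), IPT 3 (0.0693) or IPT 4 (0.0596). Rps6-ps1, Rpl15-ps3, Rpl17-ps3, Rpl17-ps4, Rpl17-ps8 and Rpl31-ps4 were chosen after their values were seen.

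**Figure D4:**
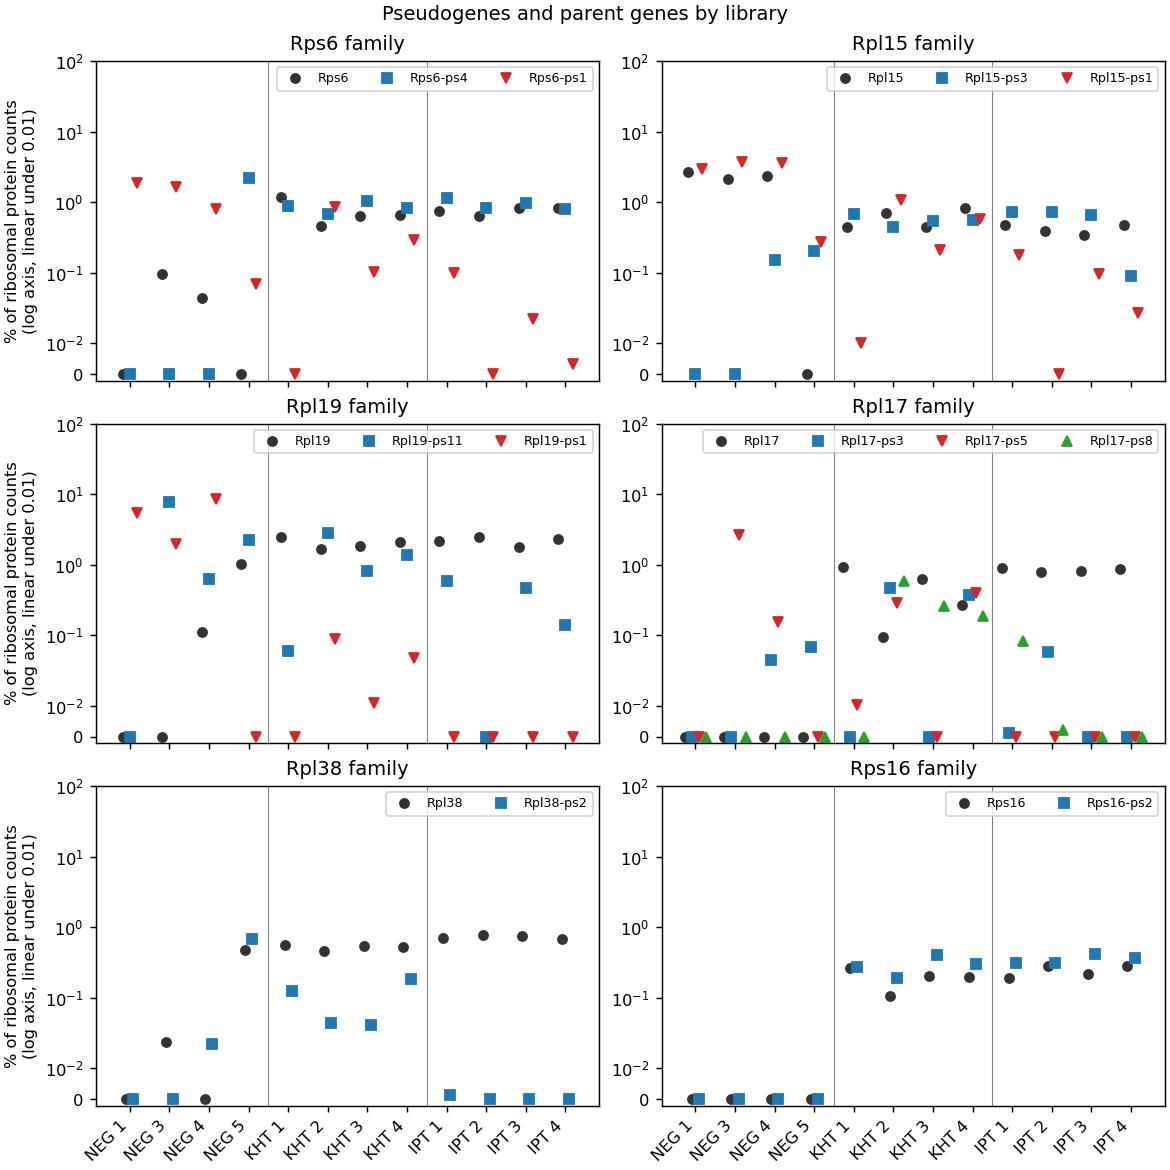
Each panel gives, for 1 parent gene (black circles) and some of its pseudogenes (coloured), the percent of ribosomal protein counts in the 12 libraries, on an axis that is logarithmic above 0.01 and linear below, with points of a library set side by side. Rps6-ps4, Rpl15-ps3 and Rps16-ps2 lie near their parent in KHT and IPT, while Rps6-ps1, Rpl15-ps1 and Rpl19-ps1 lie highest in NEG 1, 3 or 4.

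The same held for copies of Rpl15. Rpl15-ps3 had 402, 192, 300 and 165 counts in KHT, 544, 313, 298 and 53 in IPT and 0, 0, 7 and 3 in NEG 1, 3, 4 and 5. Rpl15-ps1, with 441 counts in NEG, had 6, 468, 118 and 170 in KHT (KHT over NEG -3.97, SE 1.52, edgeR adjusted p = 0.0570). The parent Rpl15 had 103, 92, 109 and 0 counts in NEG and was itself lower in KHT (-3.15, SE 0.94, edgeR adjusted p = 0.0176) with a change of 1.09 under total counts. Here the parent followed Rpl15-ps1 and not Rpl15-ps3 in NEG, and its call was lost without KHT 3 (0.0519) and with only these 2 groups fitted (0.0615). Rpl15-ps1 was called in DESeq2 (0.0132), without the filter (0.00312), with only these 2 groups fitted (0.0372) and without IPT 1 (0.0448), IPT 2 (0.0286), KHT 2 (0.0369) or NEG 5 (0.0278). In the Rpl31 family, Rpl31-ps8 had 330, 308, 447 and 218 counts in KHT and 0, 51, 32 and 10 in NEG (-1.34, SE 0.77, edgeR adjusted p = 0.162, and 2.86 under total counts, where it passed). Rpl31-ps4 had 1, 96, 44 and 61 in KHT and 32, 50, 55 and 0 in NEG (-4.25, SE 1.45, edgeR adjusted p = 0.0453). The call of Rpl31-ps4 was lost under total counts (-0.12, 0.928), with the block (0.0552) and without any 1 of NEG 1, NEG 3, NEG 4, KHT 2, KHT 3, KHT 4 or IPT 3 (0.0518 to 0.0944). Without NEG 1, Rpl31-ps8 was called lower as well (0.0272). Rpl31, at the exit of the ribosomal tunnel, had 73 counts in NEG and 1177 in KHT (-0.91, edgeR adjusted p = 0.189). Rpl31 was called lower in KHT without NEG 5 (-1.28, adjusted p = 0.0106) and higher under total counts (3.26, 1.5e-05). With the replicate number as a block, which also takes out NEG 5, it was called lower (-1.26, 0.0254).

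Copies of Rpl19 and Rpl17 varied widely from library to library. Rpl19-ps11 had 0, 333, 29 and 33 counts in NEG 1, 3, 4 and 5, 35, 1223, 454 and 401 in KHT and 442, 0, 212 and 84 in IPT. It was called in no comparison with edgeR (KHT over NEG -2.42, SE 1.75, adjusted p = 0.270, NEG over IPT 4.73, SE 1.94, adjusted p = 0.0731). NEG over IPT it was called in DESeq2 (4.20, adjusted p = 0.0177) and without the filter on low counts (4.47, adjusted p = 0.00107). Rpl19 was even by contrast, with 608 to 1471 counts in KHT, 801 to 1656 in IPT and 0, 0, 5 and 15 in NEG (KHT over NEG 2.69, SE 0.86, edgeR adjusted p = 0.0235, lost without NEG 3 at 0.0542 and with only these 2 groups fitted at 0.0753). In the Rpl17 family the copies held 52.2% of the counts in KHT and 4.80% in IPT, and in NEG all 263 counts fell on copies. Rpl17-ps5 had 6, 125, 0 and 115 counts in KHT, Rpl17-ps3 had 0, 199, 0 and 107, and Rpl17-ps8 had 0, 253, 143 and 55. All 3 thus had their highest count in KHT 2, the KHT library with the highest pseudogene share. As a share of ribosomal protein counts, Rpl17-ps5 was higher in KHT 4 (0.394%) than in KHT 2 (0.288%). Rpl17 had 545, 41, 350 and 79 counts in KHT 1 to 4, low in KHT 2 and KHT 4, with 336 to 684 in IPT and 0 in NEG. Rpl17-ps10 had 33 counts in KHT, 11 in KHT 2 and 22 in KHT 4.

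Equal counts of copies of 1 parent occurred in single libraries. Among values of at least 5, 15 pairs of pseudogenes of the same parent had an identical count in some library, with 17 such values. They included Rpl34-ps1 and Rpl34-ps2, with 24 each in NEG 1 and 27 each in NEG 3, although they had 107 and 0 in NEG 4 and 325 and 0 in KHT 2. Rpl17-ps4, Rpl17-ps5, Rpl17-ps9 and Rpl17-ps10 each had 7 in NEG 4, while Rpl17-ps4 and Rpl17-ps5 had 105 and 0 in NEG 1. Whether these equal values are reads shared out between near-identical copies was not tested.

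RefSeq's table of genes (GRCm38.p6) held 161 of the 165 members. It classed 154 as pseudogene, 6 as transcribed pseudogene and 1, Rpl34-ps1, as protein-coding. The transcribed ones were Rpl14-ps1, Rpl17-ps8, Rpl17-ps10, Rps6-ps4, Rps15a-ps6 and Rps19-ps3, so of the abundant members Rps6-ps4 and Rpl14-ps1 (1868 counts) carry that class. The copies lay on 20 chromosomes with a median length of 543 bases, and 154 were shorter than 1100 bases.

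Of the matched members 47 lay within the span of a protein-coding gene, whose strand the table does not give. Rps16-ps2 lies within Adgrd1, an adhesion G protein-coupled receptor gene, which had 3 counts over the 12 libraries against 1329 for the copy. Rps12-ps3 lies within Pdzd8 (1585 counts against 3508), Rpl28-ps1 within Zranb3 (532 against 2491) and Rps27a-ps2 within Lca5 (158 against 2748). These abundant copies thus had more counts than the longer gene around them. Some rarer copies had fewer counts than the gene around them: Rpl10-ps5 within Nup93 (1491 against 64), Rpl10-ps6 within Ide (2615 against 83) and Rps26-ps1 within Wwp2 (774 against 132). Rps2-ps10 had more than Pde6a (44 against 123). Rplp0-ps1, seen in NEG alone, lies within the span of Flg, the gene for filaggrin of the epidermis. It is 1 of the 47 and was picked after its counts were seen. A link between its position and its counts was not tested.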

How the data were processed

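RNA sequencing libraries of 13 samples were used, and the members, gene lists and tests were chosen with earlier results of these data known. Values in the deposited table are estimated counts of genes, unscaled and already whole numbers. The tools kallisto and DESeq2 and the builds GRCm38 and mm10 are named, per the submitters' processing notes, without versions or roles. How reads matching several genes were divided and how transcript values became gene values are not given in the sources used here. Per the labels' protocols, libraries came from a stranded total RNA kit with ribosomal RNA depletion, while the molecule field names polyA RNA; which holds was not settled. A table of gene names gave symbols to 27004 of the 27071 identifiers, and RefSeq (GRCm38.p6) gave positions.

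Parents were the symbol without -ps and its number. Ribosomal protein counts were those of 79 cytosolic ribosomal protein genes, 10 paralogs and the 165 pseudogenes. Shares were computed per library. Genes were tested, two-sided, with edgeR 4.0.16 (R 4.3.3; TMM, filterByExpr, and the robust options of estimateDisp and glmQLFit), using 12 libraries in 3 groups of 4 without NEG 2, and adjusted by Benjamini-Hochberg over 10714 genes. Alternatives were DESeq2 1.42.0, RLE size factors, total counts, no filter, fits of 2 groups, the replicate number as a block, each library left out, and other denominators of the share. The summed counts of a group in place of the mean share were added after seeing the data. Dominant features held at least 0.5% of pooled NEG counts. Where all libraries of a group were at 0, its sum was set to a floor of 3 counts. Where they summed to 1 to 3 counts, the ratio carries an exact binomial (Clopper-Pearson) 95% interval. Both cover counting error only and are too narrow if both mates of a pair were counted, which was not settled. On counts simulated with 4-fold changes among 10714 genes, the fit called 27% of changed genes for KHT with NEG, 78% for KHT with IPT and 22% for NEG with IPT, and with 2-fold changes 1%, 15% and 2%.

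Named members were, by rule, the 6 with the most counts in each group and, of those called, the 6 largest rises and 4 largest falls per comparison, with their parents. Others named were chosen after their values were seen.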

Additional observations from a re-analysis of the deposited data

Results flagged for a closer look

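In groups of 4 libraries, a pseudogene's share of ribosomal protein counts was set apart where the gap of 1 library to the nearest other was, as a part of the group's range, above Dixon's 95% critical value. This held for 9 of 48 groups of values that were not all 0, which cover only part of the tested pseudogenes. Dixon's critical value assumes normally distributed values, which low counts with many values at 0 are not. No rate by chance can thus be set beside the 9. In NEG 5, Rps6-ps4 held 2.18% of ribosomal protein counts, Rpl38-ps2 0.681% and Rps12-ps3 0.340%, against at most 0.0218% of any of the 3 in the other NEG libraries. In NEG 3, Rpl17-ps5 held 2.63%, against at most 0.153% in the others. In NEG 4, Rpl27-ps3 held 0.0654% and was at 0 in the other NEG libraries. In KHT 3, Rpl10-ps5 (0.0410%) and Rpl10-ps6 (0.0482%) were seen, and in KHT 4 Rpl36a-ps3 (0.0993%), all at 0 in the other KHT libraries. In IPT 1, Rpl38-ps2 held 0.00132%, which is 1 count, and was at 0 in IPT 2 to 4. For values at 0 in the other libraries, such a gap arises from counts in 1 library alone, and the cause was not tested.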

How the results depend on the processing

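Scaling and the filter on low counts both moved the counts of called pseudogenes. Between KHT and NEG, 3 higher became 5 in DESeq2, 5 without the filter on low counts and 16 under total counts, and 13 lower became 34 without the filter and 1 under total counts. Between KHT and IPT, 1 higher became 2 in DESeq2, 0 with RLE size factors, 4 without the filter and 0 under total counts. Between NEG and IPT, 23 higher became 51 without the filter and 7 under total counts, and 3 lower became 5 in DESeq2, 5 without the filter and 16 under total counts. With 1 library left out, KHT had 3 to 5 higher and 5 to 16 lower than NEG and 0 to 1 of either than IPT, and NEG had 16 to 22 higher and 3 to 4 lower than IPT. Under total counts 97.3% of all tested genes were called higher in KHT than in NEG, and 97.3% lower in NEG than in IPT. For the other alternatives no share of all genes is set beside these counts. Without the filter more genes were tested, among them all 165 pseudogenes in place of 43. The cause of the other changes was not tested.

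The mean share was 51.0% in NEG, 20.2% in KHT and 13.9% in IPT when the denominator held only pseudogenes and their parents; with 1 library left out it ran from 33.7% to 43.4%, 11.7% to 15.6% and 8.62% to 9.90%. Under total counts the sign differed in 24 of the 43 tested pseudogenes for KHT over NEG and in 10 for NEG over IPT. The genes listed next are only those named by rule and called with TMM or total counts. For KHT over NEG, changes turned in Rpl10a-ps1 (1.76), Rpl31-ps8 (2.86), Rpl38-ps2 (3.11), Rps23-ps1 (1.25), Rps27a-ps2 (0.85), Rpl15 (1.09), Rpl31 (3.26) and Rps12 (3.67). For NEG over IPT they turned in Rpl10a-ps1 (-1.74), Rpl31-ps8 (-2.85), Rps23-ps1 (-0.98), Rpl15 (-0.65), Rpl31 (-3.10) and Rps12 (-4.10). With 1 library left out, the change of Rps12 for NEG over IPT ran from -7.91, without NEG 5, to 0.60, without NEG 1.

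No pairing by replicate number was seen: over 10 pairs with the same number, correlations of deviations from the group mean ran from -0.33 to 0.20, and 2 were over 0.1. Pairs with different numbers ran from -0.48 to 0.51. With 4 libraries per group, these correlations cannot exclude that libraries with the same number share an origin. Only NEG has a library numbered 5, so the number as a block also takes NEG 5 out of the comparisons with NEG. With the number as a block, KHT had 4 pseudogenes higher and 12 lower than NEG and 1 higher and 0 lower than IPT, and NEG had 19 higher and 4 lower than IPT. Rps12 turned with the block (KHT over NEG 7.79, NEG over IPT -7.93). Depth limits NEG: with 31318 to 49062 counts outside the dominant features, a gene at 0 there may be present below the floor of 3 counts over the group.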

Other observations

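Copies of Rpl5, a large subunit gene, and of Rps13, a small subunit gene, differed in which group they held most of their family's counts; all copies named here were chosen after their values were seen. Rpl5-ps2 had 141 counts in NEG 1, 102 in NEG 4 and 0 in the other 10 libraries. The parent Rpl5 had 3 counts in NEG, 285 in KHT and 366 in IPT, so that copies of Rpl5 held 98.9% of the family's counts in NEG, 6.56% in KHT and 4.44% in IPT. Rps12-ps24 was likewise seen mostly in NEG, with 72, 43, 2 and 0 counts in NEG 1, 3, 4 and 5, 14 in KHT 2 and 0 elsewhere.

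Rps13-ps1 was at 0 in NEG and had 154, 181, 198 and 63 counts in KHT 1 to 4 and 316, 7, 85 and 92 in IPT 1 to 4. Rps13-ps2 had 18 counts in NEG, all in NEG 3, then 175, 352, 251 and 219 in KHT and 158, 88, 186 and 67 in IPT. The parent Rps13 had 422 counts in NEG, 117 in KHT and 686 in IPT. The 4 copies of Rps13 held 4.09% of the family's counts in NEG, 93.2% in KHT and 60.1% in IPT, with 33.0% in IPT 4 and 85.3% in IPT 3.

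KHT 2 held most of the KHT counts of Rpl12-ps2, 83 of 92, with 0, 3 and 6 in KHT 1, 3 and 4, while NEG had 10, 5, 4 and 2 in NEG 1, 3, 4 and 5 and IPT had 7, 2, 0 and 1.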
